A study of Homo sapiens with 18 samples.

Results

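SIX3, SIX6, RAX, LHX2, LHX5, HESX1, OTX1 and OTX2 are homeobox genes of the anterior neural plate and of the eye field. They were chosen by name, with earlier results of these data known. All 8 were measured among the 19775 genes of the arrays, through 12 probe sets that name them alone. H9, an established line of human embryonic stem (ES) cells, was followed on 1-colour Affymetrix arrays as it formed neuroepithelium, the sheet of cells that gives rise to the central nervous system. The 18 arrays, 3 RNA pools in each of 6 groups, held ES cells, embryoid bodies (EBs) at day 6, neuroepithelium at day 10 with bFGF and without it, and neuroepithelium at day 17 with bFGF and without it. Basic fibroblast growth factor (bFGF) was given from day 6. Its dose is labelled 20 ug/ml at day 10 but 20 ng/ml at day 17, a discrepancy that could not be settled here. Every group derives from this single line, each array holds a pool, and the labels trace day 6 pools 1 and 2 to the same passages (27, 28 and 31) as ES pool 1. Nothing says that the neuroepithelial pools came from separate cultures, so that the p-values measure the spread between these samples, which may be technical.

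The eye field is the part of the anterior neural plate from which both retinas arise. SIX3, RAX, LHX2 and SIX6 belong to the set of transcription factors that mark it, and OTX2 is expressed more widely, in the forebrain and midbrain and, before neural induction, in the pluripotent epiblast. HESX1 is a repressor of the anterior neural plate and of the pituitary primordium, and LHX5 is a LIM homeobox factor of the early forebrain. In RefSeq (GRCh38.p14) SIX3 lies at chr2:44941702-44946071, OTX1 at chr2:63049735-63057831, HESX1 at chr3:57197838-57227615 and LHX2 at chr9:124011768-124033301. LHX5 lies at chr12:113462033-113471871, OTX2 at chr14:56799905-56810479, SIX6 at chr14:60509146-60512850 and RAX at chr18:59267038-59273454.

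All arrays had been scaled to a common level. Low signals were raised on the pool 2 arrays of the 4 neuroepithelial groups, which had median signals of 48.7 to 50.8 against 25.2 to 32.7 on the other 14 arrays, and pool 2 of all 6 groups had higher 3' to 5' ratios of the ACTB control probe sets (2.27 to 2.64, against 1.17 to 1.75 in pools 1 and 3), a measure of RNA integrity. The same ratio for GAPDH ran the other way, at 0.876 to 1.01 in pool 2 against 0.984 to 1.24 in pools 1 and 3. Marker lists, chosen with earlier results of these data known, moved with the labelled cell states. All 8 measured pluripotency genes were lower in untreated day 17 cells than in ES cells, where 8.47% of all genes were. Of 13 pan-neural progenitor genes 11 were higher, where 11.7% of all genes were. Signals are on the deposited linear scale, as mean ± SD (n = 3), and changes are log2(signal + 16) differences with their standard error, on which changes at low signals come out too small. A gene was called at an adjusted p under 0.05 (limma, Benjamini-Hochberg over all 19775 genes). In pools of cells, more cells that express a gene and more RNA per cell cannot be told apart. Signals of different probe sets are on different scales, so that levels are compared within a gene and never between genes.

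Promoter sequences of RefSeq (build GRCh38.p14, 250 bases before to 50 after a gene's start) were matched for 6 of the 8 genes, at 8 start sites, and SIX3 and LHX5 had no entry. Homeodomain factors of this kind bind short sites with a TAAT core, so both strands were searched for TAATTA, for TAATCC, the form preferred by OTX proteins, and for AACAAT, a form bound by SOX proteins. The window at the more downstream of both HESX1 start sites (chr3:57199929-57200228, minus strand) is shown because it was the 1 of 8 windows with any match, and the windows of SIX6 (chr14:60508896-60509195, plus strand) and LHX2 (chr9:124011518-124011817, plus strand) because these genes had the most similar signals among the members. Capitals mark the matches.
HESX1: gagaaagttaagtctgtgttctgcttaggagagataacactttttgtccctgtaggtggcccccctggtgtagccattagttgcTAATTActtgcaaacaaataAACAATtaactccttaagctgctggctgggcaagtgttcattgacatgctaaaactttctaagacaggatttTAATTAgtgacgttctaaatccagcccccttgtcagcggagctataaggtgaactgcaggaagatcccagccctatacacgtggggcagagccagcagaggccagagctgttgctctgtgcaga
SIX6: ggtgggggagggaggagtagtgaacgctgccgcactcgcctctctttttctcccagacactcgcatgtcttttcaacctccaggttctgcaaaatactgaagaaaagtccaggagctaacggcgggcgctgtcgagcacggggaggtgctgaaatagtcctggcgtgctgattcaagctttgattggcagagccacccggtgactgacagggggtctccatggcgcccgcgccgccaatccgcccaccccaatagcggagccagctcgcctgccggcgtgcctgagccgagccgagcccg
LHX2: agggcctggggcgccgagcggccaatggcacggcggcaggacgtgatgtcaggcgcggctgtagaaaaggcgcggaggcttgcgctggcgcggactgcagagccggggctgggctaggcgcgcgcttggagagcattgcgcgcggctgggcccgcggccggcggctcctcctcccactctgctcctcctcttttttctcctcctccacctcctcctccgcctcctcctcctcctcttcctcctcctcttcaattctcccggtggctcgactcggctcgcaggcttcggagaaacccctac
The HESX1 window held TAATTA at 166 to 161 and at 74 to 69 bases before the start, and AACAAT at 146 to 141 bases before it, none of them overlapping. TAATTA was present in 4.84% of 35116 such windows, TAATCC in 6.36% and AACAAT in 10.1%. A match describes letters only, and nothing was measured here about binding.

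In the first 6 days 5 of the 8 genes rose and none fell. The call was made for 3.85% of all genes, 2.19% upward and 1.66% downward. As the members were chosen with earlier results of these data known, such shares are set beside them as a description only. The pools of day 6 and ES cells did not overlap for 6 of the 8 members, against 19.8% of all genes. LHX2 (5.40 ± 0.29) and SIX3 (5.08 ± 0.32) held places 1 and 2 of all 19775 genes by the size of the change. Between day 6 and untreated day 10, SIX6 and LHX2 rose and HESX1 and LHX5 fell, where 6.37% of all genes were called (3.73% higher, 2.64% lower), and the pools lay apart for 7 of 8 members against 23.2% of genes. Between untreated day 10 and day 17 the fit without a pool block called HESX1 alone, which fell. It called 1.99% of genes (1.45% higher, 0.536% lower), and the pools lay apart for 3 of 8 members against 13.6% of genes. The fit blocked on pool number, which pairs these samples, also called SIX3 lower (adjusted p = 0.0491). From ES cells to untreated day 17, SIX3, SIX6 and LHX2 had risen and HESX1 had fallen, where 20.2% of genes were called (11.7% higher, 8.47% lower), and the pools lay apart for 5 of 8 members against 33.6% of genes. The median log2 change of the 8 members was 2.14 between ES cells and day 6 (all genes -0.000276), 0.04 between day 6 and day 10 (all genes 0.09), and -0.49 between day 10 and day 17 (all genes -0.01).

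**Figure D1:**
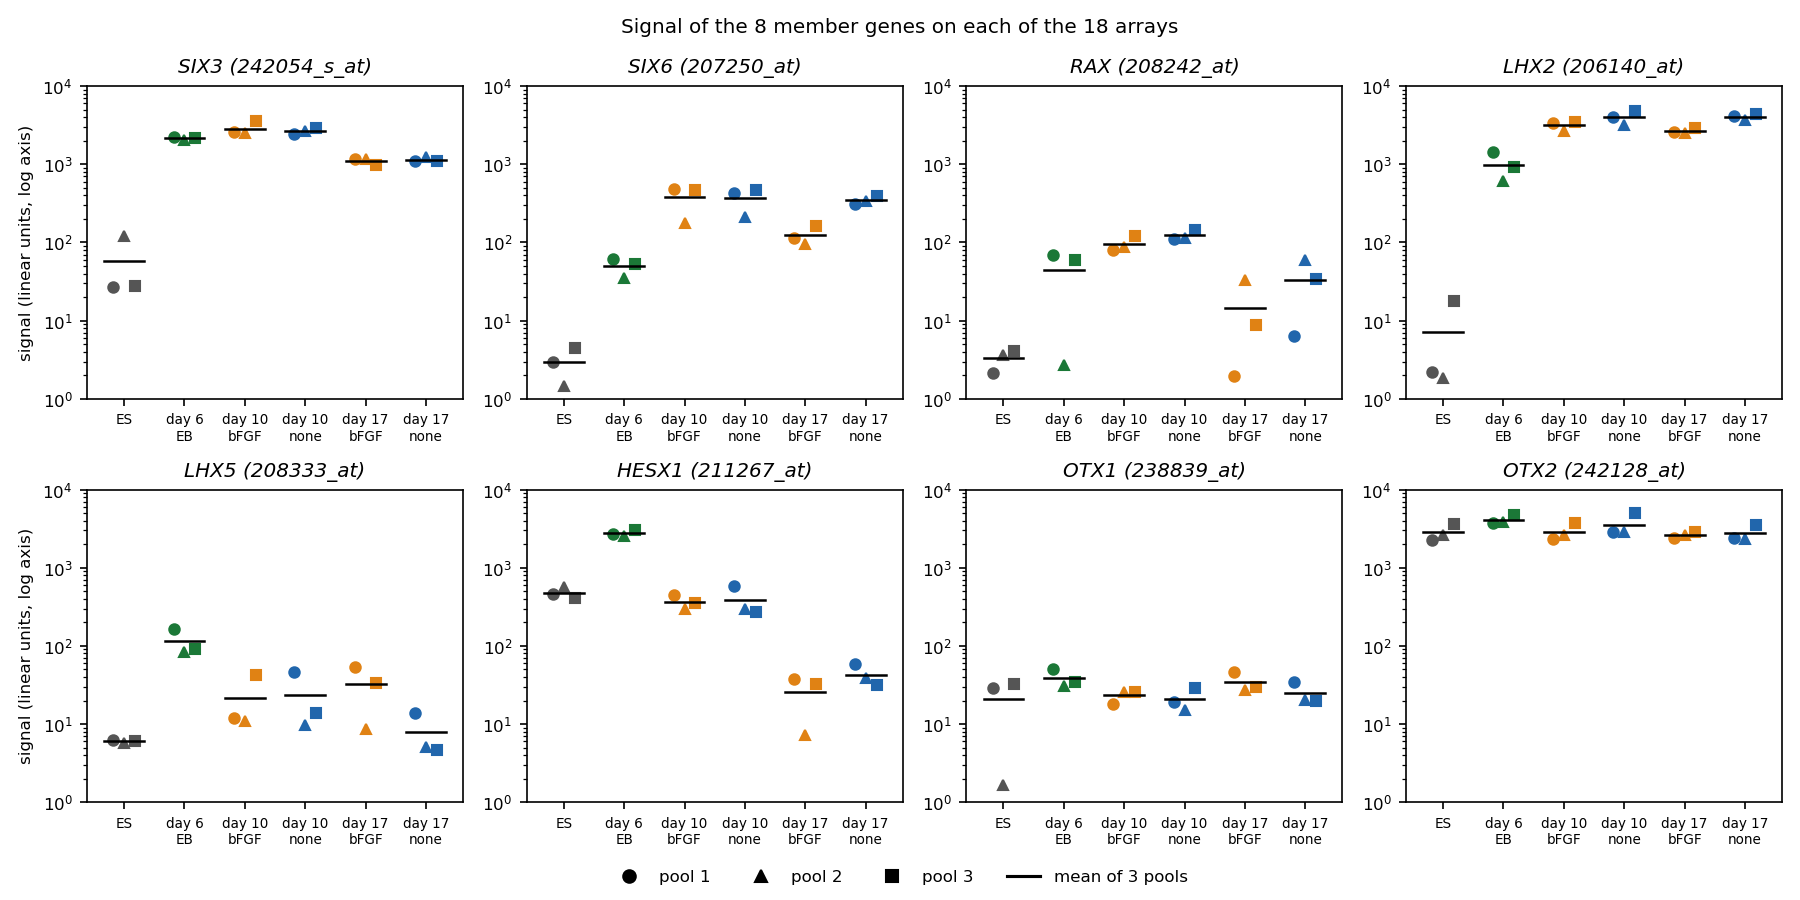
Signal of each member (vertical log axis, linear signal units) on the 18 arrays, by group along the horizontal axis. Symbols mark pools 1 to 3 and bars the mean of 3. SIX3, LHX2 and SIX6 sit far above ES cells from day 6 on, HESX1 is highest at day 6 with 2545 to 3074, and OTX2 lies between 2256 and 4936 on every array.

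SIX3, a repressor of Wnt signalling in the mouse forebrain, stood at day 6 at 74.7% of its highest group mean. Its signal there was 2251, 2009.8 and 2146 in pools 1, 2 and 3, against 27.1, 119 and 27.7 in ES cells. The lowest day 6 pool thus lay well above the highest ES pool. In untreated day 10 cells it measured 2399.6, 2685 and 2895, which is 0.31 ± 0.32 above day 6 (adjusted p = 0.671), with no overlap of the pools. At day 17 without bFGF it measured 1088, 1236 and 1108. These day 17 pools were all lower than those of day 10, by -1.20 ± 0.32. The adjusted p of this drop was 0.0761, and 0.104 with every probe set tested. It was 0.0491 in a fit blocked on pool number, which pairs these samples, and 0.0371 without pool 2. Day 17 cells remained above ES cells, by 4.19 ± 0.32 (adjusted p = 1.07e-07). In order of mean signal the groups ran bFGF day 10, untreated day 10, day 6, untreated day 17, bFGF day 17 and ES, and the neighbours that overlapped were the bFGF-treated and untreated pools of each day.

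The LIM homeobox factor LHX2, which is needed for eye and cortex formation in mice, rose in steps. It measured 1423, 601 and 913 in day 6 pools, against 2.18, 1.85 and 17.7 in ES cells, and all 3 ES values were below their array's median signal. Untreated day 10 pools had 4056, 3191 and 4725, a further rise of 2.08 ± 0.29 over day 6 (adjusted p = 0.000253). Day 17 pools without bFGF had 4163, 3644 and 4413 and overlapped those of day 10, with a change of 0.04 (95% interval -0.58 to 0.66, adjusted p = 0.995). Over the whole course the rise was 7.52 ± 0.29, place 1 of all 19775 genes in size.

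SIX6, the closest relative of SIX3, is a factor of retina, hypothalamus and pituitary, and it rose at day 6 and again at day 10. Its day 6 signal was 62.0, 34.9 and 53.2, against 2.95, 1.45 and 4.51 in ES cells, a rise of 1.78 ± 0.35 (adjusted p = 0.00563). With a pseudocount of 64 this rise was 0.76 and not called (adjusted p = 0.178). Day 10 brought 427, 214 and 470 without bFGF, so that every pool exceeded every day 6 pool, and the rise over day 6 was 2.50 ± 0.35 (adjusted p = 0.000215). Untreated day 17 pools had 312, 339 and 391 and overlapped with day 10 (-0.02, 95% interval -0.75 to 0.71). Its day 6 mean was 13.3% of its highest group mean.

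RAX, a paired-type homeobox gene required for eye formation in mice, varied widely between pools. At day 6 it had 69.3, 2.71 and 60.1, against 2.12, 3.66 and 4.06 in ES cells. Pool 2 of day 6 lay within the ES range and the other pools far above it. The change of 1.36 ± 0.52 was not called (adjusted p = 0.217), and without day 6 pool 2 it was 2.06 (adjusted p = 0.0161). In untreated day 10 cells RAX reached its highest mean, with 111, 113 and 144, and all 3 pools exceeded those of day 6 (1.48 ± 0.52, adjusted p = 0.114, and 0.0424 with a pseudocount of 64). At day 17 without bFGF it had 6.44, 60.3 and 33.7, all below day 10. The change of -1.65 ± 0.52 had an adjusted p of 0.153, but 0.0203 without pool 2 of all groups and 0.0420 with a pseudocount of 64. Against ES cells, untreated day 17 pools lay apart, with 1.19 ± 0.52 (adjusted p = 0.126, and 0.0397 without day 17 pool 1). Of these day 17 values the highest was on the array of pool 2, where low signals were raised.

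HESX1 peaked at day 6. It measured 2712, 2545 and 3074 in day 6 pools, against 467, 565 and 409 in ES cells, a rise of 2.50 ± 0.32 (adjusted p = 0.000170). In ES cells all 3 of its values were above their array's median signal. At day 10 without bFGF it had 577, 301 and 267, a fall of -2.89 ± 0.32 from day 6 (adjusted p = 2.87e-05), and these pools overlapped those of ES cells. A second fall of -2.70 ± 0.32 followed (adjusted p = 0.000238), to 58.7, 38.9 and 31.6 in untreated day 17 cells. The day 17 mean was 1.55% of that at day 6, and day 17 cells were lower than ES cells by -3.08 ± 0.32 (adjusted p = 3.00e-06). All 4 of these calls were kept under every alternative processing and when any array was left out.

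LHX5, which in zebrafish promotes forebrain development through secreted Wnt antagonists, also peaked at day 6. The pools had 166, 84.3 and 92.2 there, against 6.18, 5.79 and 6.06 in ES cells (2.51 ± 0.41, adjusted p = 0.00135). Untreated day 10 pools had 46.9, 9.73 and 14.04, below all day 6 pools, and the fall was -1.78 ± 0.41 (adjusted p = 0.0129). This fall was not called without day 6 pool 1 (adjusted p = 0.0764), day 10 pool 2 (0.0658), day 10 pool 3 (0.0578) or pool 2 of all groups (0.0588), with a pseudocount of 1 (0.0564) or with the compared groups fitted alone (0.0522). By day 17 without bFGF the signal was 14.001, 5.14 and 4.71, overlapping both day 10 and ES cells, and all 3 values were below their array's median. At day 10, 2 of the 3 untreated values were also below it.

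OTX2 and OTX1, the vertebrate relatives of the fly head gene orthodenticle, passed the test in none of the comparisons in the fit without a pool block. OTX2 had 3685, 3871 and 4686 at day 6, against 2256, 2600.3 and 3607 in ES cells. Here the pools lay apart, and the change was 0.55 ± 0.27 (adjusted p = 0.402). Untreated day 10 pools had 2904, 2832 and 4936, and untreated day 17 pools 2403, 2344 and 3529.6. From ES cells to untreated day 17 the change was -0.03 (95% interval -0.59 to 0.53, adjusted p = 0.960), and all neighbours in the order of the 6 group means overlapped. OTX1 had 18 values between 1.68 and 50.2. It lay below its array's median on 3 of 3 arrays in both day 10 groups and 2 of 3 in untreated day 17 cells. This held for 1 of 3 in ES cells, 1 of 3 in bFGF day 17 cells and 0 of 3 at day 6. Its highest mean was at day 6 (38.6 ± 10.2, against 21.1 ± 16.9 in ES cells), with a change of 0.68 ± 0.32 and an adjusted p of 0.380.

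**Figure D2:**
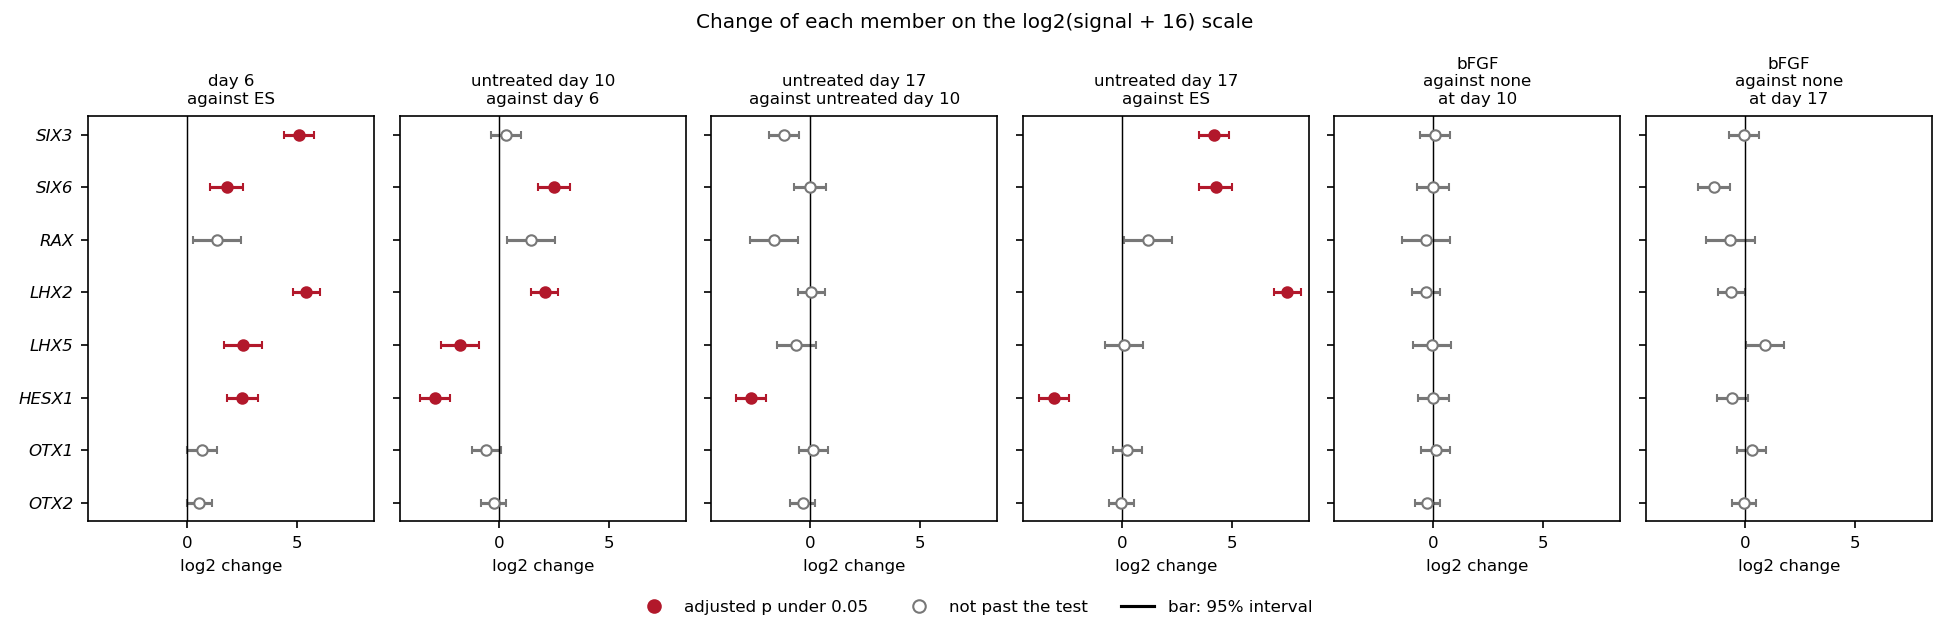
Change of each member (horizontal axis, log2(signal + 16) scale) in 6 comparisons, with 95% intervals and filled points where the adjusted p was under 0.05. SIX3 and LHX2 lie above 5 between ES cells and day 6, HESX1 lies below -2.6 in both later steps, and no point is filled in either bFGF comparison. The fit shown has no pool block.

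In the fit without a pool block, treatment with bFGF moved none of the 8 genes past the test at either day. The fit blocked on pool number called SIX6 alone, lower at day 17 (adjusted p = 0.0156). At day 10 the call was made for 0.086% of all genes (0.0809% higher, 0.00506% lower), and 0 of 8 members had an unadjusted p under 0.05, as did 3.10% of all genes. Changes ran between -0.33 (LHX2) and 0.10 (OTX1), and the pools lay apart for 0 of 8 members, against 6.11% of all genes. SIX3 for example had 2557, 2497 and 3525 with bFGF, against 2399.6, 2685 and 2895 without it, a change of 0.09 (95% interval -0.60 to 0.78). SIX6 had 481, 178 and 470 with bFGF, against 427, 214 and 470 without it, and pool 2 was the lowest in both. LHX2 had 3319, 2695 and 3448 with bFGF, against 4056, 3191 and 4725 without it, and the pools overlapped (-0.33, 95% interval -0.95 to 0.29). RAX had 80.5, 86.4 and 119.6 with bFGF, against 111, 113 and 144 without it, likewise with overlap (-0.32 ± 0.52). Within pools of the same number, RAX, LHX2 and OTX2 were lower with bFGF in 3 of 3 pairs, and the fit blocked on pool number called none of them (adjusted p = 0.989 for RAX, 0.965 for LHX2 and 0.957 for OTX2). The share of all genes that kept 1 direction in 3 of 3 pairs was not counted. HESX1 had 454, 295 and 352 with bFGF, against 577, 301 and 267 without it (0.0062 ± 0.32).

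At day 17 the call was made for 0.339% of all genes (0.182% higher, 0.157% lower), and 2 of 8 members had an unadjusted p under 0.05, as did 4.96% of all genes. SIX6 measured 115, 94.5 and 161 with bFGF, against 312, 339 and 391 without it. Every treated pool was lower than every untreated pool, by -1.40 ± 0.35 (95% interval -2.14 to -0.67), a change in place 71 of 19775 by size. Its adjusted p was 0.167, and it was 0.0156 in the fit blocked on pool number, in which treated and untreated pools of 1 number deviated together. With the 4 arrays of raised low signals as a term it was 0.0114. Of all genes, the blocked fit called 120 in this comparison, against 67 without the block. LHX2 showed the other separation of pools, with 2569, 2529 and 2893 under bFGF against 4163, 3644 and 4413 without it (-0.61 ± 0.29, unadjusted p = 0.0540, adjusted p = 1.00). Groups lay apart for 9.03% of all genes in this comparison, and for 2 of the 8 members.

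LHX5 leaned the other way at day 17, with 54.3, 8.59 and 33.5 under bFGF against 14.001, 5.14 and 4.71 without it (0.90 ± 0.41, unadjusted p = 0.0423, adjusted p = 0.973). Treated and untreated pools overlapped. HESX1 had 37.5, 7.31 and 32.3 with bFGF, against 58.7, 38.9 and 31.6 without it (-0.56 ± 0.32). RAX had 1.94, 33.4 and 8.66 with bFGF, against 6.44, 60.3 and 33.7 without it (-0.65 ± 0.52), and its 3 treated values were below their array's median. Treated and untreated pools of both genes overlapped. Within pools of the same number at day 17, SIX6, LHX2 and RAX were lower with bFGF in 3 of 3 pairs, and LHX5 and OTX1 were higher in 3 of 3. Of these 5, the fit blocked on pool number called SIX6, and gave adjusted p-values of 0.435 for LHX2, 0.820 for RAX, 0.400 for LHX5 and 0.851 for OTX1. The share of all genes with such agreement was not counted, so that the pair counts are descriptions only. The SIX3 signal was 1177, 1177 and 981 with bFGF and overlapped the untreated pools, with a change of -0.04 (95% interval -0.73 to 0.64). OTX2 likewise differed by -0.04 (95% interval -0.61 to 0.52). The difference between the bFGF effects of day 17 and day 10 was called for 0 members and 0 genes by limma, with unadjusted p under 0.05 for 3.19% of all genes and for SIX6 among the members (-1.38 ± 0.49, unadjusted p = 0.0124).

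SIX3, LHX2 and OTX2 had further probe sets, which were set beside the kept ones. For SIX3, the probe set 206634_at gave 5.24 ± 0.66 between ES cells and day 6 and 244288_s_at gave 2.17 ± 0.27, both called among all probe sets (largest adjusted p 0.000155). Over the 18 arrays they correlated with the kept probe set at 0.94 and 0.96. Between untreated day 10 and day 17 neither was called, at -1.09 ± 0.66 (206634_at, adjusted p = 0.751) and -0.79 ± 0.27 (244288_s_at, adjusted p = 0.271). In 206634_at pool 2 was the lowest of its group in 5 of 6 groups, for example 813 at day 6 beside 2567 and 1829, whereas the kept probe set had 2009.8 in that pool. Pool 2 was also the lowest in all 6 groups for both LHX2 probe sets and for OTX2 probe set 231731_at. The ACTB and GAPDH ratios of pool 2 differ from the other pools in opposite directions, and their part in these pool differences was not tested.

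For LHX2, the second probe set 211219_s_at rose by 2.86 ± 0.40 between ES cells and day 6 and by 1.91 ± 0.40 from there to day 10, both called (r = 0.97 with the kept one). At day 17 it had 299, 295 and 578 with bFGF, against 738, 476 and 921 without it, where the pools overlapped. The pair of OTX2 probe sets correlated less closely, at 0.70. In 231731_at the signal was 1704, 1531 and 1764 at day 6, against 1221, 1188 and 1593 in ES cells, and it too passed no test. Its bFGF change at day 17 was 0.17 ± 0.22, against -0.04 in the kept probe set.

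**Figure D3:**
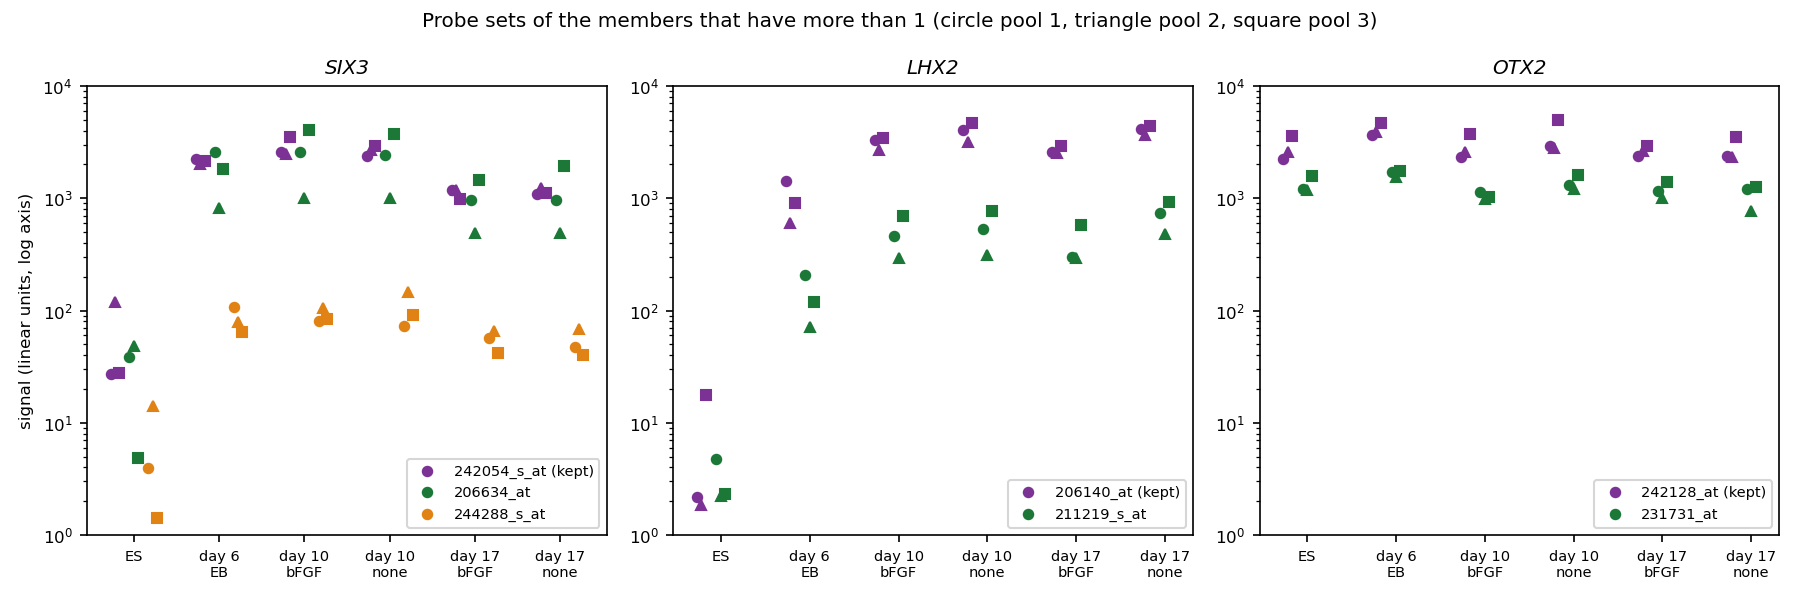
Signal (vertical log axis, linear units) of every probe set of SIX3, LHX2 and OTX2 on the 18 arrays, by group along the horizontal axis. Colours mark probe sets and symbols pools. For SIX3 206634_at the triangles of pool 2 fall below the other pools in 5 of 6 groups, and in the kept SIX3 probe set in 2 of 6.

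Over the 18 arrays, which share group and pool effects, the signals of the members fell into different patterns. The closest pairs were SIX6 with LHX2 (Pearson r = 0.92 on the log2 scale) and SIX3 with LHX2 (0.89). RAX followed SIX3 at 0.70 and LHX2 at 0.60. HESX1 had a correlation of 0.03 with SIX3 and of -0.37 with SIX6, while LHX5 correlated with HESX1 at 0.56. These values are descriptions and were not tested.

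**Figure D4:**
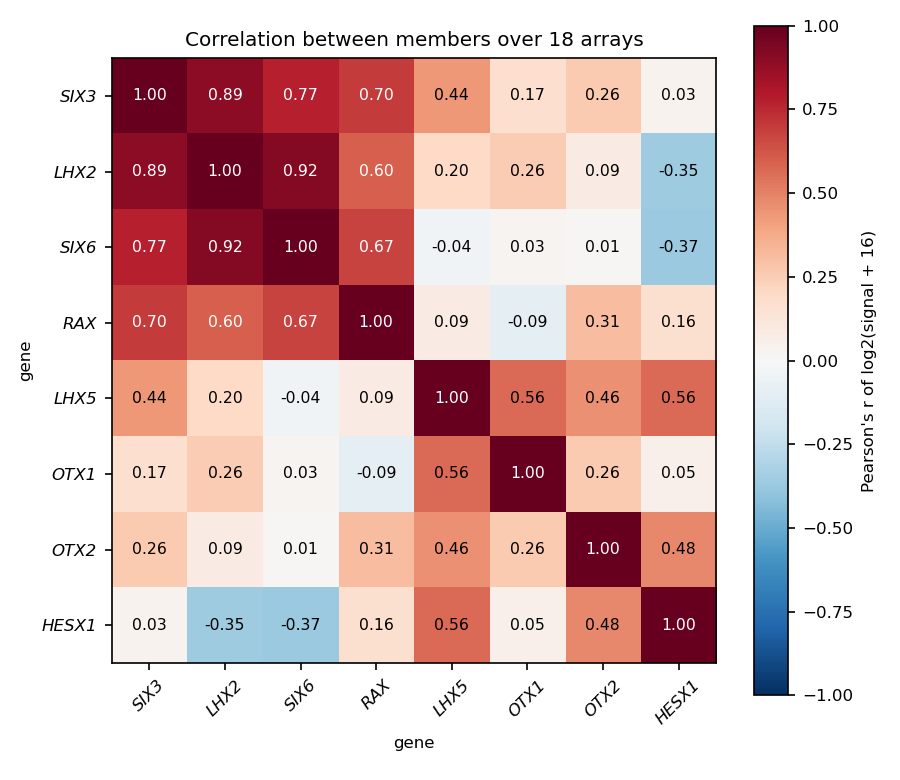
Pearson correlation of log2(signal + 16) between each pair of members over the 18 arrays, with genes on both axes. SIX3, LHX2, SIX6 and RAX correlate with each other at 0.60 to 0.92, and HESX1 correlates with LHX2 and SIX6 at -0.35 and -0.37.

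Genes with the most similar signals were taken, 3 for each member, from 1114 other genes whose group means spanned at least 2 log2 units. Their likeness to a member in any group follows from this choice and is no separate evidence. Nearest to SIX3 were EPHA4, an ephrin receptor (r = 0.99), PRTG, an immunoglobulin superfamily receptor (0.98), and MAPK10, a neural JNK kinase (0.97). EPHA4 measured 1802 ± 246 at day 6 against 178 ± 77.5 in ES cells. LHX2 was followed by DLK1, LIX1 and PAX6 (each 0.98), of which PAX6 is itself an eye field factor and had 2213 ± 647 in untreated day 17 cells against 46.6 ± 17.5 in ES cells. SIX6 was nearest to ENPP2, which makes lysophosphatidic acid, LRP2, an endocytic receptor, and SKIDA1 (each 0.96). ENPP2, like SIX6, was lower on average with bFGF at day 17, at 586 ± 160 against 1170 ± 353 without it. It was not called there (-0.98 ± 0.26, adjusted p = 0.263).

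For RAX the nearest genes were RARB, a retinoic acid receptor, ME3, a mitochondrial malic enzyme, and NDP, which encodes the Norrie disease protein (0.80, 0.80 and 0.79). RARB had 166 ± 64.9 in untreated day 10 cells and 55.1 ± 20.5 in untreated day 17 cells. HESX1 was nearest to STOM, a membrane protein (0.97), BST2 (0.95) and HAS3, a hyaluronan synthase (0.92). STOM, the closest of these, had 2029.6 ± 265 at day 6 against 727 ± 109 in ES cells. LHX5 was nearest to SP5, a Wnt target (0.84), IRX1 (0.82) and ALDH1A2, which makes retinoic acid (0.82). IRX1 peaked with LHX5 at day 6, at 415 ± 90.4 against 57.9 ± 10.7 in ES cells. The highest values for OTX1 (0.64, SP5) and OTX2 (0.70, PKDCC) were lower, and both members spanned under 1 log2 unit themselves (0.68 and 0.62).

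SIX3-AS1 is annotated beside SIX3 (GRCh38.p14, chr2:44940154-44941878, overlapping the start of SIX3 at chr2:44941702-44946071), and it was added after its values had been seen. Its probe set rose to 149, 78.1 and 116 at day 6, against 16.5, 9.81 and 27.3 in ES cells (1.94 ± 0.29, adjusted p = 0.000611), and correlated with SIX3 at 0.87 over the 18 arrays. At day 17 it had 149, 112 and 155 with bFGF, against 124, 68.7 and 71.5 without it, and these pools overlapped. OTX2-AS1, by contrast, rose between ES cells and untreated day 17 (1.51 ± 0.27, adjusted p = 0.000546), to 99.7, 51.5 and 62.0 against 10.5, 14.4 and 16.8, while OTX2 itself did not pass the test.

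Of 20 other regulators of forebrain and eye field, 14 were measured. PAX6, SP8, LMO3 and EMX2, 4 of the 14, rose between ES cells and day 6, where 2.19% of all genes did, with SP8 at 524 against 53.9. Another 5 increases followed at day 10 (3.73% of all genes), among them FEZF2, a forebrain zinc finger factor, at 184 against 28.6 at day 6. Between day 10 and day 17, NR2E1, an orphan nuclear receptor of neural stem cells (616 against 19.5), EMX2 (1289.8 against 149.8), NKX2-1 of the ventral forebrain (130.4 against 2.49) and TBR1, a cortical neuron factor (57.9 against 14.9), rose. These were 4 of the 14, where 1.45% of all genes rose. By untreated day 17, 11 of the 14 were higher than in ES cells and 0 lower, where 11.7% of all genes were higher, with a median change of 2.95 (all genes 0.09). Of 13 genes of the later retina and pigment epithelium 0 were called by day 6 (median -0.02), where 3.85% of all genes were. Their summed signal was 795 to 1820 at day 6 against 484 to 748 in ES cells. MITF and TYRP1 rose by day 10 (3.73% of all genes), and TYRP1 rose again by day 17 (1.45% of all genes). Midbrain, hindbrain and spinal genes gave 1 increase of 16 by day 6 (PAX2), where 2.19% of all genes rose. In untreated day 17 cells 2 of 16 were higher than in ES cells (median 0.24), a share near the 11.7% of all genes. The 12 family relatives of the members gave 0 calls by day 6 (3.85% of all genes) and 1 decrease from day 6 to day 10 (2.64% of all genes). LHX6 and LHX8 rose between day 10 and day 17, where 1.45% of all genes did. From ES cells to untreated day 17, 2 of the relatives were higher and 1 lower (11.7% and 8.47% of all genes). These lists, like the members, were chosen with earlier results of these data known.

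Secreted antagonists of Wnt, BMP and Nodal signals gave 6 increases and 1 decrease (LEFTY1) among 13 genes by day 6, where 2.19% of all genes were higher and 1.66% lower, with a median change of 0.77. FRZB rose to 2393 against 188 in ES cells, SHISA2 to 4706 against 564 and DKK1 to 170.4 against 38.2. Under bFGF the call was made at day 17 for NR2E1, which fell (147 against 616 without it), for the pigment gene TYRP1 and the lens factor FOXE3, which fell (68.1 against 276 and 21.1 against 126), and for the midbrain and hindbrain factors EN2 and PAX5, which rose (92.8 against 17.1 and 114 against 25.3). These were 1 of 14 forebrain and eye field, 1 of 13 retina and pigment and 1 of 11 placode, lens and pituitary genes. The rises were 2 of 16 midbrain, hindbrain and spinal genes. Of all genes 0.182% were called higher and 0.157% lower in this comparison. DKK2, a Wnt antagonist and 1 of the 13, rose with bFGF at day 10 (152 against 18.9, where 0.0809% of all genes rose) and at day 17 (235 against 44.5).

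Some markers of other cell types moved beside the members at day 6. Of 7 neural crest genes 5 rose and 1 fell, beside the same 2.19% and 1.66% of all genes, with TFAP2A at 670.3 against 34.96 in ES cells, with a median change of 1.63, and their summed signal was 1286 to 1487 at day 6 against 276 to 307 in ES cells. Of 11 placode, lens and pituitary genes 3 rose (EYA1, DLX5 and DLX6), with sums of 411 to 537 at day 6 against 59.1 to 115 in ES cells. Of 8 choroid plexus genes 1 rose, and their sums overlapped, at 2192 to 3611 against 2010 to 5516 in ES cells. None of the 10 anterior endoderm and mesendoderm genes was called by day 6, where 3.85% of all genes were. Their median change was 0.40, and their sums were 515 to 599 at day 6 against 367 to 405 in ES cells. No marker of these lists was listed at 0 on any array, which does not show that it was expressed, as the lowest signals of the arrays also lay above 0. The part of such cells in the members' signals was not tested.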

How the data were processed

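The deposited values are Affymetrix signal intensities on a linear scale, 1 for each of 54675 probe sets and 18 arrays. The authors' summarisation software is not given in the sources used here, and the trimmed mean of about 150.02 on every array shows scaling to a common level. Gene names are those of GEO's platform annotation: 41097 probe sets had 1 gene, 1801 several and 11777 none. Of probe sets that name 1 gene, those ending in _x_at were dropped where another existed, and the one with the highest mean log2(signal + 16) was kept, for 19775 genes with no filter on low values. One linear model over the 6 groups was fitted to all genes with limma 3.58.1 (R 4.3.3), with Benjamini-Hochberg adjustment, after tests on simulated data. Tables and figures were made with Python 3.11.15, pandas 2.3.3 and matplotlib 3.10.9. The number of arrays, 3 a group, limits the precision.

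The text names the 8 members with all their probe sets, the 3 genes most alike each member by correlation over the 18 arrays, and at most 4 called genes of a list and comparison, the largest. The antisense genes were added after their values had been seen. The members and lists were chosen with earlier results of these data known.

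Pool numbers come from the labels, except that of ES pool 1, which is by accession order. A bFGF day 10 pool is number 2 in its title, used here, and 1 in its description, and the day 10 block rests on the title. Same-numbered pools deviated together between untreated day 17 and day 10 (correlations of 0.37 to 0.62), between bFGF and none at day 10 (0.39 to 0.67) and at day 17 (0.32 to 0.65), and these were taken as paired. Between day 10 and day 6 the lowest correlation was 0.07, and these were not. Pools of ES cells also deviated with those of day 6 (0.21 to 0.38) and untreated day 17 (0.16 to 0.25) of the same number, but were not taken as paired, because of the number given by order. Alternatives changed the pseudocount, scaling, filter, variance prior, arrays fitted, probe set rule and pool block.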

Additional observations from a re-analysis of the deposited data

How the results depend on the processing

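Of 770 values under alternatives, 738 kept their direction and side of the threshold, 4 lost the call, 14 gained it and 14 changed sign. Leaving out 1 array gave 384 more, of which 350 were kept, 3 lost the call, 2 gained it and 29 changed sign. Sign changes concerned uncalled values near 0. The upper 60% filter left no value for LHX5 and OTX1. With the fixed block, OTX2 between ES cells and day 6 was called (0.55, adjusted p = 0.0377), where pool numbers rest in part on accession order. The block changed no other call of a member beyond those given beside SIX3 and SIX6. The causes were not tested, and low signals limit RAX, LHX5 and OTX1.

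Members called lower between day 6 and untreated day 10 numbered 1, in place of 2, with a pseudocount of 1, the compared groups alone, the upper 60% filter and without pool 2, and 1 to 2 when 1 array was left out. Between day 10 and day 17 they numbered 2, in place of 1, with either pool block, the trended prior and the filter, and 3 with a pseudocount of 64 and without pool 2. Under bFGF at day 17 they numbered 1, in place of 0, with either block and with the 4 raised arrays as a term.

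Genes called between ES cells and day 6 were 762, and 1454 and 1363 with the fixed and the random replicate block, 1171 with the 4 arrays as a term and 462 to 615 without 1 array. From day 6 to day 10 they were 1259, and 647 with the compared groups alone, 1957 with every probe set, 2512 and 2300 with the blocks and 813 without pool 2. From day 10 to day 17 they were 393, and 226 with a pseudocount of 1, 34 with the compared groups alone, 754 with each block, 229 without the 4 arrays, 645 with them as a term, 182 without pool 2 and 206 to 311 without 1 array. From ES cells to day 17 they were 3989, and 6749 with every probe set. Under bFGF at day 10 they were 17, and 2 with a pseudocount of 1, 0 with the compared groups alone, 10 with the mean of probe sets, 34 and 38 with the blocks, 4 without the 4 arrays, 37 with them as a term, 4 without pool 2 and 3 to 13 without 1 array. Under bFGF at day 17 they were 67, and 20 with a pseudocount of 1, 0 with the compared groups alone, 120 and 122 with the blocks, 102 with the 4 arrays as a term, 22 without pool 2 and 22 to 45 without 1 array. The difference of the bFGF effects had 0, and 1 with a pseudocount of 64, either block or the term, and 0 to 1 without 1 array.

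With quantile scaling, LHX5 was -0.021 and OTX2 0.28 between ES cells and day 17, and HESX1 -0.028 under bFGF at day 10. OTX2 between ES cells and day 17 was 0.074 without the 4 arrays, 0.047 with them as a term and 0.030 without pool 2, and under bFGF at day 17 it was 0.062 with the mean of probe sets. Both without the 4 arrays and without pool 2, LHX2 from day 10 to day 17 was -0.030, and under bFGF at day 10 SIX6 was 0.084 and OTX1 -0.064. Without pool 2, OTX1 between ES cells and day 17 was -0.14.

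Leaving out 1 array gave these ranges. Under bFGF at day 10, HESX1 ran between -0.20 and 0.33, LHX5 between -0.41 and 0.34, OTX1 between -0.015 and 0.25, SIX3 between -0.069 and 0.18 and SIX6 between -0.36 and 0.42. Under bFGF at day 17, OTX2 ran between -0.15 and 0.15 and SIX3 between -0.087 and 0.043. For the difference of the bFGF effects, OTX2 ran between -0.024 and 0.44, RAX between -0.81 and 0.068 and SIX3 between -0.22 and 0.026. From day 10 to day 17, LHX2 ran between -0.11 and 0.17, OTX1 between -0.023 and 0.28 and SIX6 between -0.36 and 0.18. From ES cells to day 17, LHX5 ran between -0.073 and 0.19, OTX1 between -0.22 and 0.51 and OTX2 between -0.22 and 0.16.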
